A study of Mus musculus with 9 samples.

Results

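Microglia that express the R47H variant of human TREM2 were compared with the midpoint of microglia that express no human TREM2 (KO) and microglia that express its common variant (CV). The comparison was the mean of the R47H arrays minus the average of the KO mean and the CV mean, so a gene at 0 stands exactly halfway in R47H. All 9 arrays of the 9 in the series entered it, 3 for each genotype, each from a separate mouse. The mice were 8.5 months old, carried the 5XFAD transgenes that drive amyloid deposition, and had no mouse TREM2, in all groups alike. Within each genotype mouse 1 was a female and mice 2 and 3 were males. Cells were sorted from dissociated brain by CD45 and CD11b, a gate that neutrophils and monocytes can also enter. No source used here names the promoter that drives human TREM2 in these mice or the number of lines they came from.

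TREM2 is a receptor of microglia that binds lipids and lipoproteins and signals through the adaptor Tyrobp. In amyloid models it is needed for microglia to leave their resting, homeostatic state and to take up the program of disease-associated microglia (DAM), with genes of lipid handling, lysosomes and adhesion. The R47H variant binds ligands less well and raises the risk of Alzheimer's disease in its carriers. A variant of partly reduced function would place its genes between KO and CV, and the midpoint is the reference for that position.

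A departure from the midpoint can have either of 2 forms. R47H can lie outside the interval that KO and CV span, or it can lie inside it but close to one end. In the second form the departure takes its size from the difference between KO and CV. With equal group sizes the 2 estimates are orthogonal, so the choice of genes by CV minus KO does not by itself set the sign of the departure. Values are log2 probe set values as deposited, differences are on the same log2 scale with their standard error (SE) from limma, and genes with an adjusted p under 0.05 (Benjamini-Hochberg over 10795 genes tested) were called. The p-values measure the spread between these mice.

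Of the 10795 genes 23 were called (0.213%), 18 higher in R47H than the midpoint (0.167%) and 5 lower (0.0463%). In 19 of the 23 all 3 R47H arrays lay outside the range of the 6 KO and CV arrays, above it for 17 genes and below it for 2. The 23 were called on these same arrays, so this count describes them and is no separate support. Over all genes tested the R47H arrays lay outside that range for 267 genes (2.47%), above it for 176 (1.63%) and below it for 91 (0.843%). At an unadjusted p under 0.05 (limma) 789 genes (7.31%) departed, 455 higher (4.21%) and 334 lower (3.09%), which is the background for the unadjusted counts of gene lists given further on. Differences were positive for 5609 of the 10795 genes tested and negative for 5186. Among all 19938 genes, without a filter on low values, 9552 were positive. These are the background for counts of positive and negative list members. Of the 18 genes called higher 3 were in the oligodendrocyte list (Ermn, Mag and Mobp) and 1 in the astrocyte list (S100b), and 14 were in no list of cell type markers. The genes called lower were Arnt, a transcription factor, Fn1, Emp1, Anxa2 and I830077J02Rik, the last chosen after its value was seen. A joint test that R47H was beyond KO and beyond CV, taking the larger p of the 2 limma comparisons, called 0 genes (0%), with 187 at an unadjusted p under 0.05. Its smallest adjusted p was 0.0904, shared by Ermn, Arnt and Sez6l2.

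The count depended on single arrays. It was 0 without R47H mouse 1, 0 without R47H mouse 3 and 0 without CV mouse 3 (629, 651 and 735 genes at an unadjusted p under 0.05, limma). It was 2 without R47H mouse 2 and 6 without CV mouse 1. All 23 genes kept their direction in each of the 9 fits that left out 1 array, and no gene of the 23 was called in all 9 of them. Ermn, Slain1, Sez6l2, Arnt and Fn1 were called in 5 of the 9.

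**Figure D1:**
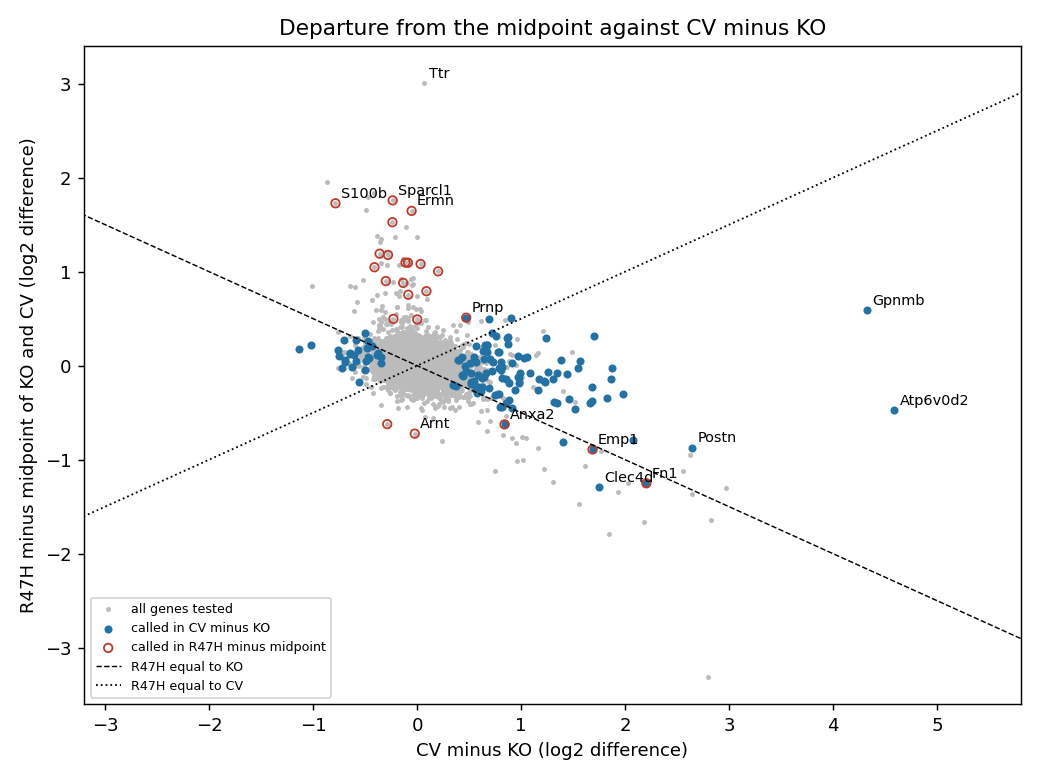
Each point is 1 of 10795 genes, with CV minus KO on the horizontal axis and R47H minus the midpoint on the vertical axis (both log2 differences); filled blue points were called in CV minus KO and open red circles in R47H minus the midpoint. On the dashed line R47H equals KO and on the dotted line it equals CV: 17 of the 18 genes called higher had all R47H arrays above both groups, while Fn1, Emp1 and Anxa2 lie near the dashed line.

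Of 12 tested markers of oligodendrocytes, the myelin-forming cells, 3 were called, all higher in R47H. Ermn encodes ermin, a cytoskeletal protein of myelin. It read 6.91, 6.63 and 6.47 in R47H mice 1, 2 and 3, against 5.40, 5.01 and 4.75 in KO and 4.85, 5.36 and 4.78 in CV. KO and CV overlapped, and the lowest R47H array lay above both. The difference from the midpoint was 1.65 ± 0.16, a 3.13-fold excess (limma adjusted p = 0.0143). Mag, a myelin adhesion protein, read 7.38, 7.21 and 7.28 in R47H, 6.62, 6.44 and 5.77 in KO and 5.99, 6.03 and 5.73 in CV (difference 1.19 ± 0.15, limma adjusted p = 0.0240). Mobp, a basic protein of compact myelin, read 7.50, 7.04 and 7.30 in R47H, 6.42, 6.42 and 5.83 in KO and 6.06, 6.27 and 6.09 in CV (1.09 ± 0.14, limma adjusted p = 0.0240). For all 3 genes the KO and CV arrays overlapped each other and none reached an R47H array. Fa2h, which hydroxylates the fatty acids of myelin lipids, rose by 1.18 ± 0.15, and Cldn11, the tight junction protein of myelin, stood at 1.48 ± 0.23 with an adjusted p of 0.0530 (limma).

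Of 17 oligodendrocyte markers in the list 15 had a probe set with a single gene symbol, and 12 passed the filter on low values. Ermn passed it only through R47H, since its KO and CV means lay below the filter. Among the genes called higher the same held for Gprc5b and Scd1. Slain1, Fa2h and Grm3, also called higher, had CV means of 5.09, 5.16 and 5.16, below the filter at 5.31. Their KO means of 5.39, 5.44 and 5.39 lay above it by less, so these genes too passed only through R47H. Without the filter 14 of the 15 differences were positive and the median was 0.92, against a median of -0.0044 over all 19938 genes. All R47H arrays lay above the 6 others for 10 of the 15, against 1.44% of all genes, while 0.988% had all R47H arrays below. The exception to the direction was Nkx6-2, a transcription factor, at -0.0078, and the iron carrier Trf, which other brain cells also make, stood at 0.16. Both were chosen after their values were seen. Among markers of oligodendrocyte precursors 6 of 9 were positive without the filter (median 0.05), with Olig1, a transcription factor of the lineage, at 0.78 ± 0.16 (limma adjusted p = 0.170). A sort on CD45 and CD11b should remove oligodendrocytes and astrocytes, and the source of these transcripts was not tested. In bulk RNA a difference in the number of cells of a type and in the RNA of each cannot be told apart.

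The promoters of Mobp, Ermn and Arnt are shown because these genes carry the departure in either direction and each has 1 start in the table used. They run from 250 bases before to 50 bases after the start in RefSeq on GRCm38.p6, 5′ to 3′ on the gene's strand. Capitals mark ACAAAG, a core of SOX factors such as Sox10, for Mobp and Ermn, and ACGTG, a core of bHLH-PAS dimers, for Arnt, on either strand. The Mobp window (chr9:120149492-120149791, plus strand) holds 6 matches, the Ermn window (chr2:58052815-58053114, minus strand) 0 and the Arnt window (chr3:95434140-95434439, plus strand) 0.
Mobp: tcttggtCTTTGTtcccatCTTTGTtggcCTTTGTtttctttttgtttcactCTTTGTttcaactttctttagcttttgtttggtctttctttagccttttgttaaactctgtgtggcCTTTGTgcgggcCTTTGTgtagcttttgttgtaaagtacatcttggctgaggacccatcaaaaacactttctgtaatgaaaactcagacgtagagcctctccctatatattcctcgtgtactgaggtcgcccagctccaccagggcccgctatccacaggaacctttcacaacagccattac
Ermn: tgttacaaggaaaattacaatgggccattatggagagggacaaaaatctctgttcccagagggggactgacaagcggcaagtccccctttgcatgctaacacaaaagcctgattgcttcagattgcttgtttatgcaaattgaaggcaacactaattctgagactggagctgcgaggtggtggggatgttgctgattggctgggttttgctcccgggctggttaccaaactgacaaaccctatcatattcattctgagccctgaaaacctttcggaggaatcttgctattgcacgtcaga
Arnt: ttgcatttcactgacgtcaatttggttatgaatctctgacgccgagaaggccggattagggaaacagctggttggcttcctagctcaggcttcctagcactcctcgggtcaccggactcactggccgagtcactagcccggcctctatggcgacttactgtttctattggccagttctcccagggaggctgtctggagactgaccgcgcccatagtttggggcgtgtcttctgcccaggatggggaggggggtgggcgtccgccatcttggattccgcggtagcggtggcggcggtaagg
ACAAAG was found in 2 of the 13 genes called higher that have a promoter in the table (15.4%) and in 3 of 9 tested oligodendrocyte markers (33.3%), against 16.0% of 8693 tested genes. ACGTG was found in 6 of 13 tested genes of the bHLH-PAS list (46.2%), against 29.6% of tested genes. It was found in 1 of 13 genes called higher (7.69%) and in 2 of 9 tested oligodendrocyte markers (22.2%). ACAAAG was found in 2 of 13 tested genes of the bHLH-PAS list (15.4%). A gene counted when any of its windows held a match, so genes with more starts had more chances. The motifs cannot overlap each other, a CACGTG holds ACGTG on both strands, and a match is a description of letters.

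**Figure D2:**
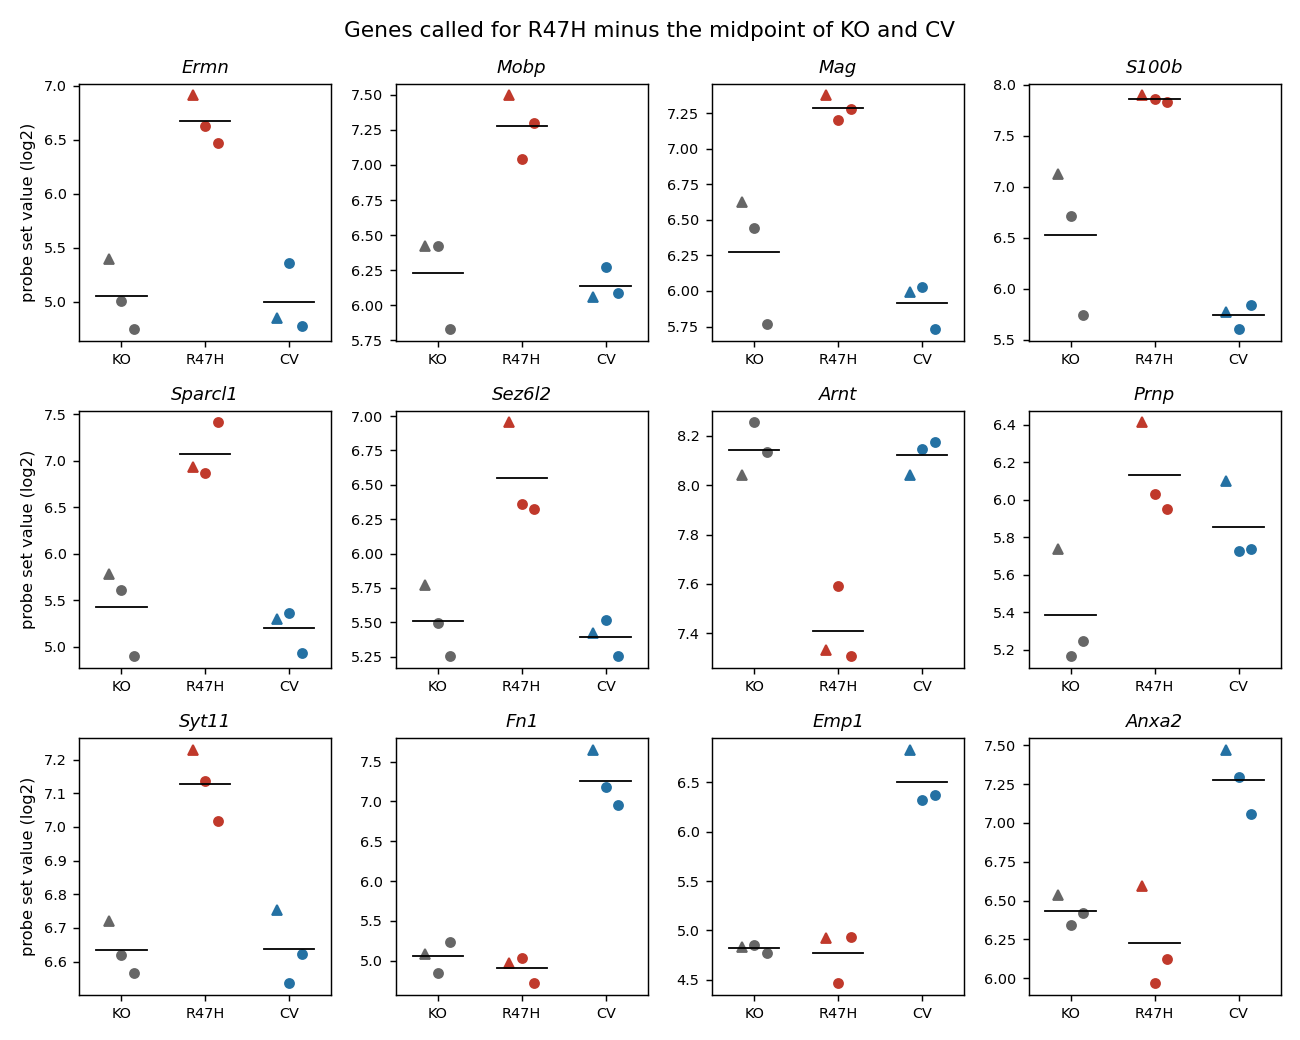
Each panel is 1 called gene, with the log2 probe set value of every array by genotype; triangles are females, circles males and bars group means, and each panel has its own axis range. The R47H arrays lie above the 6 others for Ermn, Mobp, Mag, S100b, Sparcl1, Sez6l2 and Syt11 and below them for Arnt, while for Fn1, Emp1 and Anxa2 the CV arrays stand apart and for Prnp R47H overlaps CV.

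Of 6 tested astrocyte markers 1 was called, higher, and 5 differences were positive and 1 negative (-0.04). Gfap, Aqp4, Aldh1l1, Gja1, Gjb6, Sox9, Slc4a4 and Mlc1 did not pass the filter on low values. S100b, a calcium-binding protein of astrocytes and some oligodendrocytes, read 7.90, 7.86 and 7.83 in R47H, 7.13, 6.71 and 5.74 in KO and 5.77, 5.61 and 5.85 in CV. The R47H arrays were tightly grouped above a wide KO group. The difference was 1.73 ± 0.22, a 3.31-fold excess (limma adjusted p = 0.0240). Sparcl1 and Ndrg2, called higher and not in the list, are also abundant in astrocytes. Sparcl1, a secreted matrix protein, read 6.93, 6.87 and 7.41 in R47H, 5.79, 5.61 and 4.90 in KO and 5.29, 5.36 and 4.94 in CV (1.76 ± 0.20, limma adjusted p = 0.0185). Ndrg2 rose by 1.00 ± 0.14. In the list, the glycolytic enzyme Aldoc stood at 1.07 ± 0.20 and the glutamate transporter Slc1a2 at 0.52 ± 0.11, both with all R47H arrays above the others and neither called (limma adjusted p = 0.101 and 0.151). Clu, the chaperone clusterin, stood at 0.62 ± 0.18 (limma adjusted p = 0.472). The KO and CV means of Slc1a2 (5.25 and 5.13) lay below the filter. For Clu the CV mean (5.17) lay below it and the KO mean (5.36) above it by less. Both genes thus passed only through R47H, and the counts of tested astrocyte markers are partly set by it. Without the filter 11 of 14 astrocyte markers were positive (median 0.27), and the R47H arrays lay above all others for 6 of the 14.

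The remaining genes called higher are expressed in neural tissue or more broadly. Ndrg2, Slain1, Syt11, Stmn4, Shisa4, Gprc5b and Grm3 were chosen after their values were seen. Sez6l2, a membrane protein of neurons, read 6.95, 6.36 and 6.33 in R47H, 5.77, 5.49 and 5.26 in KO and 5.42, 5.51 and 5.25 in CV (1.10 ± 0.11, limma adjusted p = 0.0143). Aplp1, a neural relative of the amyloid precursor protein, read 7.17, 7.17 and 7.17 in R47H, 6.54, 6.40 and 6.04 in KO and 5.84, 6.15 and 5.77 in CV (1.05 ± 0.12, limma adjusted p = 0.0185). Nnat, an imprinted gene of brain and endocrine tissue, rose by 1.08 ± 0.16, with R47H mouse 2 (7.17) closer to the other groups than mice 1 and 3 (8.11 and 7.97). Slain1 and Stmn4, both regulators of microtubules, rose by 0.90 ± 0.09 and 0.88 ± 0.11. The receptor Gprc5b rose by 0.75 ± 0.10, the glutamate receptor Grm3 by 0.50 ± 0.07 and Shisa4 by 0.79 ± 0.10. Syt11, a synaptotagmin of vesicle traffic, rose by 0.49 ± 0.06. Its R47H values were 7.23, 7.14 and 7.02 against 6.72, 6.62 and 6.57 in KO and 6.75, 6.54 and 6.62 in CV, so KO and CV were alike in mean (6.64 each). Scd1, the desaturase that makes monounsaturated fatty acids, read 6.64, 6.02 and 6.69 in R47H, 5.65, 4.94 and 4.54 in KO and 4.61, 4.89 and 4.92 in CV (1.53 ± 0.22, limma adjusted p = 0.0381). Its paralog Scd2 stood at 0.55 ± 0.13 (limma adjusted p = 0.298).

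Marker lists of other brain cells had medians near 0 without the filter, but most of their members read below it. Of 17 neuronal, 17 endothelial and mural and 8 ependymal and choroid plexus markers with a probe set, 1, 5 and 2 passed. Such medians were read mostly at low values and do not show that these cell types lacked a departure. Neuronal markers had a median of 0.02 without the filter, with 11 of 17 positive and 0 with all R47H arrays above the others. Endothelial and mural markers had a median of -0.01, with 7 of 17 positive and 0 above. Of the ependymal and choroid plexus markers 6 of 8 were positive (median 0.05). The 2 that passed the filter, Ttr and Ccdc153, had a median of 1.54 and a minimum of 0.07. Ttr, the thyroid hormone carrier made by choroid plexus, read 10.07, 8.96 and 11.29 in R47H, 6.03, 8.81 and 6.36 in KO and 7.35, 6.68 and 7.36 in CV. The R47H arrays lay above the others, with KO mouse 2 close to R47H mouse 2, and the difference of 3.01 ± 0.65 was not called (limma adjusted p = 0.196). Markers of microglia and macrophages themselves had a median of 0.06, with 13 of 14 positive.

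A score for each mouse was taken as the mean, over the members of a list that had a probe set, of each gene's deviation from its own mean over the 9 arrays. The oligodendrocyte score was 0.78, 0.40 and 0.63 in R47H mice 1, 2 and 3, 0.04, -0.21 and -0.49 in KO and -0.40, -0.24 and -0.51 in CV. The astrocyte score was 0.26, 0.22 and 0.47 in R47H, against a range of -0.29 to 0.04 over the 6 others. Both scores were above every KO and CV value in all 3 R47H mice. With the oligodendrocyte score of the 12 tested members as a covariate limma called 0 genes, with 326 at an unadjusted p under 0.05. This score separates R47H from all other arrays and has Ermn, Mag and Mobp as members, so it overlaps the comparison and the fit says little about any gene's departure. Under it Mobp stood at 0.0017 ± 0.25, Mag at 0.08 ± 0.28, Ermn at 0.53 ± 0.35 and S100b at 0.51 ± 0.59. Sparcl1 stood at 0.36 ± 0.43, Aplp1 at 0.16 ± 0.22, Scd1 at 0.054 ± 0.48 and Slain1 at 0.57 ± 0.28. Fn1 stood at -0.52 ± 0.36 and I830077J02Rik at -0.31 ± 0.25, both nearer to 0 than without the score. Arnt stood at -0.65 ± 0.25, Syt11 at 0.60 ± 0.19, Prnp at 0.51 ± 0.20, Grm3 at 0.51 ± 0.23 and Emp1 at -0.81 ± 0.39, with larger errors than without the covariate. The lowest adjusted p among these genes under the covariate was 0.999 (limma).

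**Figure D3:**
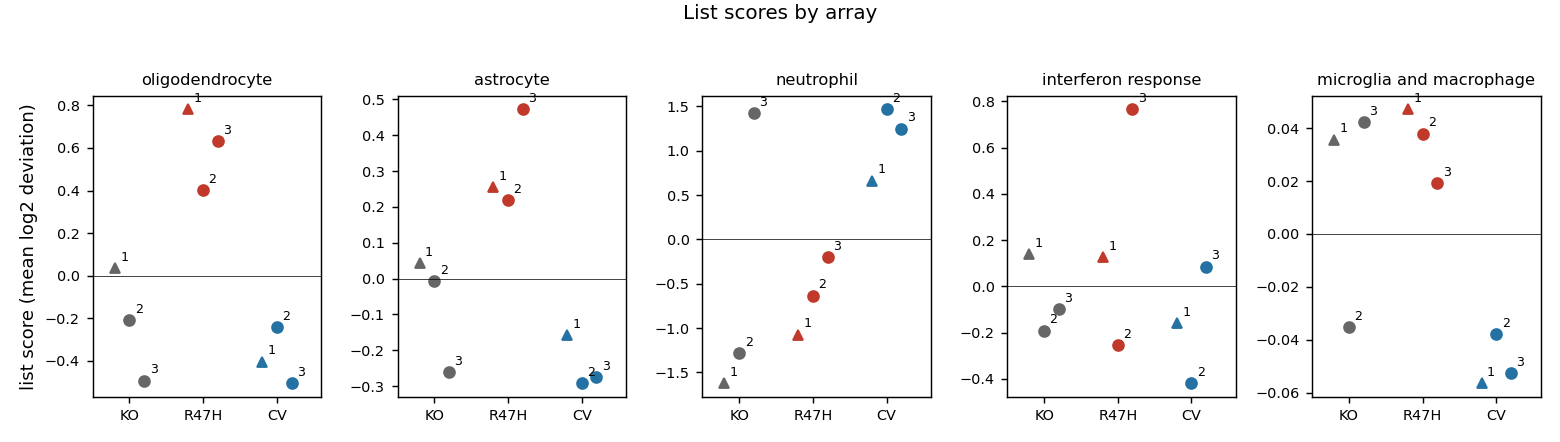
Each panel gives a list score per array (mean log2 deviation of the list's members from their own means) by genotype, with the mouse number beside each point; triangles are females and circles males, and each panel has its own axis range. The 3 R47H arrays lie above the 6 others for oligodendrocyte and astrocyte markers, the neutrophil scores of KO mice run from -1.62 to 1.43, and R47H mouse 3 has the highest interferon score (0.77).

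Arnt was the named gene called lower with R47H below both groups. Arnt is the shared partner with which hypoxia-inducible factors and the aryl hydrocarbon receptor bind DNA. It read 7.33, 7.59 and 7.31 in R47H, 8.04, 8.25 and 8.13 in KO and 8.04, 8.15 and 8.17 in CV. KO and CV overlapped almost fully, and the highest R47H array lay below the lowest of the 6 others. The difference was -0.72 ± 0.07, a level 1.65-fold below the midpoint (limma adjusted p = 0.0143). It was -0.73 against KO and -0.71 against CV. Over the fits that left out 1 array it ran from -0.80 to -0.64. I830077J02Rik behaved alike in rank, at 8.63, 8.46 and 8.49 in R47H, 9.15, 9.26 and 9.47 in KO and 8.97 to 9.04 in CV (-0.62 ± 0.08, limma adjusted p = 0.0240).

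In the list of bHLH-PAS factors and their clock and hypoxia targets Arnt was the one called of 15 tested members, and 5 had an unadjusted p under 0.05, 4 lower and 1 higher (limma). In all 13 of the 15 differences were negative (median -0.10, without the filter 15 of 20 and -0.08). Nr1d1, a nuclear receptor of the circadian clock, stood at -0.42 ± 0.12 and the clock repressor Cry2 at -0.31 ± 0.12 (limma adjusted p = 0.487 and 0.644). The groups overlapped for both: Nr1d1 read 8.37, 9.17 and 9.03 in R47H, 9.26, 9.41 and 9.68 in KO and 8.88, 9.01 and 9.43 in CV. Hif1a, a partner of Arnt, stood at 0.16 ± 0.06. In the hypoxia and glycolysis list 0 of 18 tested members were called (3 at an unadjusted p under 0.05, limma), with the glucose transporter Slc2a3 at -0.41 ± 0.11 and the oxygen sensor Egln1 at 0.26 ± 0.08 (limma adjusted p = 0.422 and 0.516). The 5 tested genes on each side of Arnt in the RefSeq order of GRCm38.p6 stood between -0.22 (Prune1) and 0.11 (Mindy1), with adjusted p of 0.689 or above. These neighbours were looked up after the value of Arnt was seen.

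For the other 3 genes called lower the CV arrays stood apart from both KO and R47H. Fn1, the matrix protein fibronectin, read 4.98, 5.03 and 4.72 in R47H, 5.08, 4.85 and 5.24 in KO and 7.65, 7.17 and 6.96 in CV. R47H and KO overlapped and every CV array lay above all 6 of them. The difference from the midpoint was -1.25 ± 0.13 (limma adjusted p = 0.0166), and R47H minus KO was -0.15. Emp1, a membrane protein of epithelia and myeloid cells, read 4.92, 4.47 and 4.93 in R47H, 4.84, 4.85 and 4.78 in KO and 6.83, 6.32 and 6.37 in CV (-0.89 ± 0.11, limma adjusted p = 0.0240). The KO and R47H means of Fn1 (5.06 and 4.91) and Emp1 (4.82 and 4.77) lay below the filter on low values. Both genes passed it only through CV, so the likeness of R47H to KO was read at low values. Anxa2, a calcium-dependent membrane binder, read 6.60, 5.97 and 6.12 in R47H, 6.54, 6.34 and 6.42 in KO and 7.47, 7.29 and 7.05 in CV (-0.62 ± 0.09, limma adjusted p = 0.0383). Clec4d, a lectin receptor, Ahnak2, a large scaffold protein, Kctd5 and Taf4b followed by p, at -1.29 ± 0.20, -0.44 ± 0.07, -0.44 ± 0.07 and -0.47 ± 0.07, and were not called (limma adjusted p = 0.0530, 0.0530, 0.0530 and 0.0532). For Kctd5 and Taf4b the R47H arrays lay below all 6 others.

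The genes called in CV minus KO (131, 1.21% of those tested) show where R47H stood on the way from KO to CV. R47H lay on the KO side of the midpoint for 91 of the 131 (69.5%) and on the CV side for 40. The share was 67 of 103 among genes higher with the common variant and 24 of 28 among genes lower with it. The median position was 36.3% of the way from KO to CV, with 39 genes under 25% and 14 over 75%. For 11 genes the position was below 0% and for 3 above 100%, so there the R47H mean lay outside the span of the KO and CV means. Few of these departures from the midpoint were called: 3 on the KO side (Fn1, Emp1 and Anxa2) and 1 on the CV side (Prnp). Without the array of KO mouse 1, KO mouse 2, CV mouse 1, CV mouse 2 or CV mouse 3 the KO side held 52, 58, 47, 53 and 50 genes, of 74, 75, 59, 70 and 67 called. In these fits KO and CV were of unequal size and the 2 estimates were not orthogonal. The choice of genes by CV minus KO can then affect the side. Anpep, an aminopeptidase, Postn, the matrix protein periostin, and Adgre5, an adhesion receptor, stood at -0.79 ± 0.14, -0.87 ± 0.23 and -0.81 ± 0.23 from the midpoint, on the KO side (limma adjusted p = 0.0886, 0.390 and 0.472). Postn, like Fn1 and Emp1, had KO and R47H means (4.68 and 5.13) below the filter on low values. Atp6v0d2, a subunit of the lysosomal proton pump, read 6.37, 6.37 and 6.22 in R47H, between 4.93, 4.13 and 4.45 in KO and 9.34, 9.13 and 8.79 in CV, with no overlap of any groups (-0.48 ± 0.12, limma adjusted p = 0.396).

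On the CV side Prnp, the prion protein gene, was called. It read 6.41, 6.03 and 5.95 in R47H, 5.74, 5.17 and 5.24 in KO and 6.10, 5.73 and 5.74 in CV. Every R47H array lay above every KO array, R47H and CV overlapped, and the female read highest in each group. The difference from the midpoint was 0.51 ± 0.06 (limma adjusted p = 0.0185). The R47H mean (6.13) lay above the CV mean (5.85), by 0.27 ± 0.07 (limma adjusted p = 0.148). The means of Prnp, Igf1 and Fabp3 in R47H stood at 158%, 122% and 106% of the way from KO to CV, past the CV mean. Igf1, a growth factor of activated microglia, read 9.06, 8.35 and 8.27 in R47H, 8.04, 7.60 and 7.52 in KO and 8.66, 8.19 and 8.37 in CV, and stood at 0.50 ± 0.08 (limma adjusted p = 0.0607). The fatty acid carrier Fabp3 stood at 0.50 ± 0.09, the motor protein Myo1e at 0.35 ± 0.10 and Phlda1 at 0.31 ± 0.10 (limma adjusted p = 0.0808, 0.438 and 0.524). Gpnmb, a glycoprotein of lipid-laden macrophages, read 10.04, 9.16 and 9.14 in R47H, 7.47, 6.89 and 5.74 in KO and 11.24, 10.86 and 10.97 in CV. No groups overlapped, and its 95% interval around the midpoint ran from 0.06 to 1.12 (difference 0.59 ± 0.23, limma adjusted p = 0.668).

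**Figure D4:**
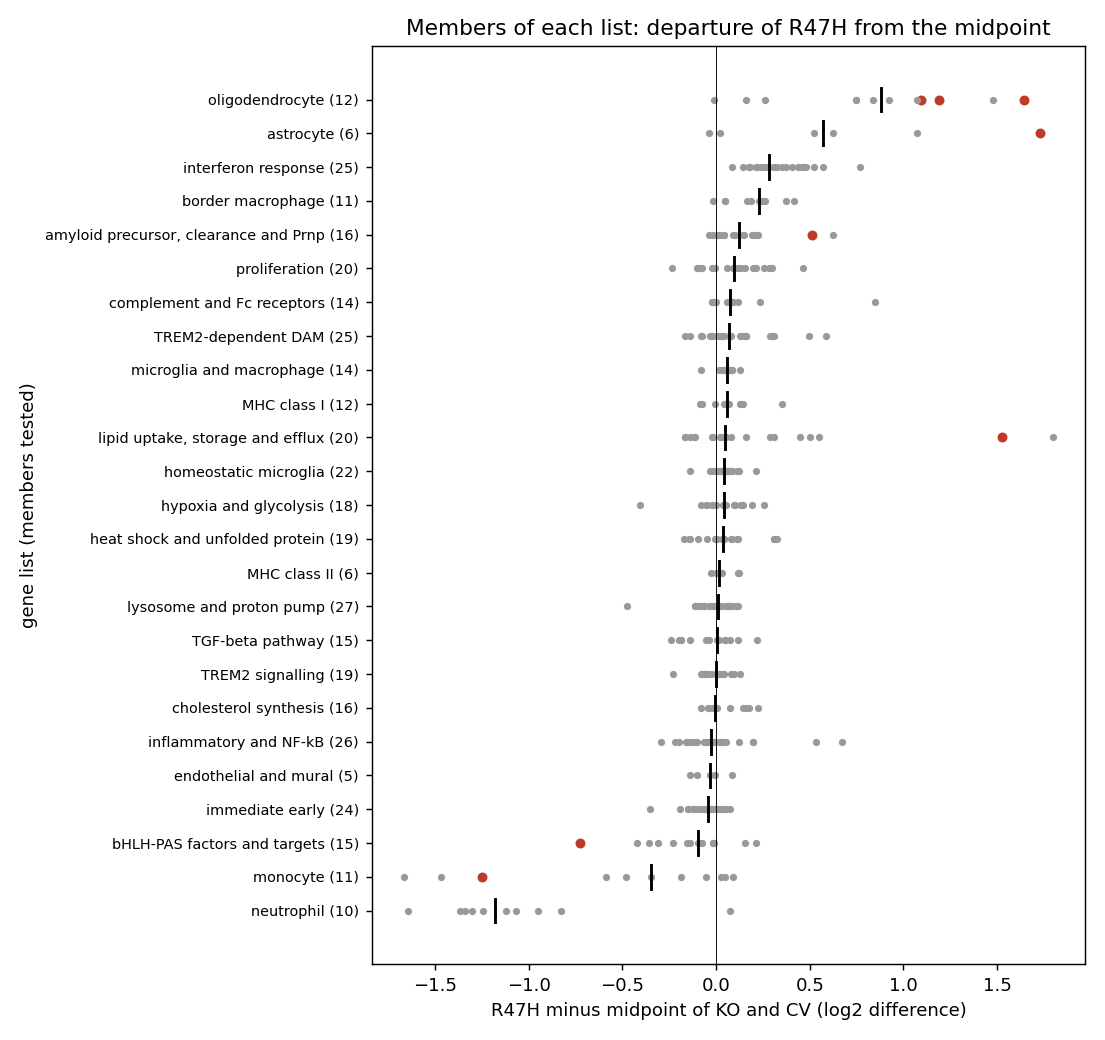
Each row is a gene list with at least 5 tested members (their number in brackets), each point a member's R47H minus midpoint difference (log2), red where called and grey where not, and the black bar the median of the list. Among tested members oligodendrocyte (0.88) and astrocyte (0.57) markers have the highest medians and neutrophil markers (-1.18) the lowest, while most microglial lists centre near 0. Some tested members passed the filter on low values only through R47H. Without the filter the astrocyte median is 0.27, below that of the interferon response list (0.28).

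Medians of microglial state lists lay near 0. Of the 25 TREM2-dependent DAM genes 18 were positive and 7 negative (median 0.07), and 0 were called (4 at an unadjusted p under 0.05, limma). Cst7, a cystatin, stood at 0.30 ± 0.08 and Hif1a as above. Of 22 homeostatic genes 18 were positive (median 0.04), 0 were called and 1, the crystallin Crybb1 at 0.22 ± 0.09, had an unadjusted p under 0.05 (limma). Lysosome and proton pump genes had a median of 0.01 and cholesterol synthesis genes -0.0076 without the filter, with 0 called in either (1 and 1 at an unadjusted p under 0.05, limma). In the lipid list Scd1 was called and 5 of 20 tested members had an unadjusted p under 0.05 (limma), and the lipid droplet protein Plin3 stood at 0.45 ± 0.09 (limma adjusted p = 0.159). Fabp7, a fatty acid carrier of astrocytes and their precursors that was picked after its value had been seen, was at 1.80 ± 0.50, with overlapping groups (limma adjusted p = 0.438). Genes of TREM2 signalling had a median of -0.01 without the filter. Tyrobp read 12.79, 12.66 and 12.74 in R47H, 12.70, 12.56 and 12.70 in KO and 12.66, 12.72 and 12.78 in CV, all overlapping (0.04 ± 0.06, 95% interval -0.10 to 0.19). The mouse Trem2 probe set read 7.31, 7.26 and 7.28 in R47H against 7.05 to 7.21 in the 6 others (0.13 ± 0.06, limma adjusted p = 0.715). It checks no label, since the sources used here do not say which part of Trem2 was deleted or whether the probe set also reads human TREM2. In the amyloid list 17 of 19 members were positive without the filter (median 0.10), with Prnp called, 5 of 16 tested at an unadjusted p under 0.05 (limma), and the secretase Bace1 at 0.21 ± 0.06 (limma adjusted p = 0.417). TGF-beta genes had a median of -0.00074 without the filter. Of 15 tested 0 were called and 5 had an unadjusted p under 0.05, 4 lower and 1 higher (limma), with Smad4, the common signal transducer, at -0.19 ± 0.06 (limma adjusted p = 0.607).

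Interferon response genes lay above the midpoint in all 26 measured members, with a median of 0.28. None of 25 tested was called (2 at an unadjusted p under 0.05, limma), and for 0 were all R47H arrays above the others. The score was 0.13, -0.25 and 0.77 in R47H mice 1, 2 and 3, so the excess lay in R47H mouse 3, and the other R47H mice fell within the range of KO and CV (-0.42 to 0.14). The median of the 25 tested genes was 0.04 without R47H mouse 3 and 0.58 without R47H mouse 2. Ifit2, an antiviral effector, read 7.64, 7.23 and 8.48 in R47H, 7.28, 6.99 and 7.23 in KO and 6.95, 6.39 and 7.23 in CV (0.77 ± 0.27, limma adjusted p = 0.607). Ifitm3 stood at 0.41 ± 0.15 and Oasl2 at 0.57 ± 0.27. The peptide transporter Tap1 of the MHC class I list stood at 0.35 ± 0.09 (limma adjusted p = 0.325), and the medians of the class I and class II lists were 0.06 and 0.03 without the filter. The proliferation list had a median of 0.10, with 0 called and 4 of 20 tested at an unadjusted p under 0.05 (limma), and Stmn1, a microtubule regulator that neural cells also express, stood at 0.46 ± 0.10 (limma adjusted p = 0.197).

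Markers of blood myeloid cells lay below the midpoint. Of 14 neutrophil markers 13 were negative without the filter (median -1.09), 0 of the 10 tested were called and 1, the gelatinase Mmp9 at -0.82 ± 0.32, had an unadjusted p under 0.05 (limma). Camp, an antimicrobial granule peptide, stood at -1.64 ± 0.83. The neutrophil score was -1.07, -0.63 and -0.20 in R47H, 0.66, 1.47 and 1.25 in CV, and -1.62, -1.28 and 1.43 in KO mice 1, 2 and 3. R47H thus lay within the range of KO and below CV, and KO mouse 3 stood with CV. Without KO mouse 3 the median of the 10 tested markers was -0.58, against -1.18 with it. Of 12 monocyte markers 8 were negative without the filter (median -0.27). Of 11 tested 6 had an unadjusted p under 0.05, all lower (limma), with Fn1 called, S100a6 at -1.47 ± 0.50 and Plac8 at -0.35 ± 0.12. A fit that also held the neutrophil score of the 10 tested markers called 1 gene, S100b (limma), and Fn1, Emp1 and Anxa2 stood at -1.12 ± 0.14, -0.86 ± 0.14 and -0.57 ± 0.10 (limma adjusted p = 0.0617, 0.133 and 0.191). The part of monocytes in these values was not tested. Macrophages of the brain's borders went the other way, with 11 of 12 markers positive (median 0.21), 0 of 11 tested called and 2 at an unadjusted p under 0.05 (limma). Cd163, a scavenger receptor, stood at 0.37 ± 0.07 and the platelet factor Pf4 at 0.25 ± 0.12 (limma adjusted p = 0.101 and 0.690). All KO arrays of Cd163 held the same value (6.49), so its SE may be too small, and R47H minus KO was 0.19.

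The remaining lists held no called member. The inflammatory and NF-kB list had a median of -0.04 without the filter, the immediate early list, a sign of tissue dissociation, -0.04, with Egr2 at -0.35 ± 0.13, and the heat shock list 0.04. The complement and Fc receptor list had a median of 0.08. Its complement gene C4b, which astrocytes and oligodendrocytes also express, stood at 0.85 ± 0.39, with values of 9.30, 7.20 and 8.55 in R47H against 8.48, 8.24 and 6.76 in KO and 7.26, 7.15 and 7.12 in CV. Markers of T and NK cells, B cells and erythroid cells had medians of -0.05, 0.03 and -0.07 without the filter. Of their 14, 9 and 3 members with a probe set, 2, 3 and 1 passed it, so these medians too were read mostly at low values. Of tested members in these 7 lists 1 (Egr2) had an unadjusted p under 0.05 (limma).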

How the data were processed

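The deposited table gives log2 values of 35556 probe sets on 9 arrays. The log2 scale was read from the values (1.31 to 13.9), and no source used here states the authors' background correction, normalization or summarisation. Array medians lay between 5.28 and 5.35. Probe sets with exactly 1 gene symbol (21789) were kept, 1 per gene by highest mean, and genes at or above the 50% point of all probe set means (5.31) were tested, 10795 of 19938. Names come from the platform annotation, and RefSeq tables were used for gene order and promoters.

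limma 3.58.1 in R 4.3.3 (lmFit, eBayes) fitted genotype and sex on all 9 arrays, two-sided, with 5 residual and 3.73 prior degrees of freedom. Number of arrays limits precision (median residual SD 0.12). The fit was tried on simulated data with independent noise for each gene. Of 50 genes changed in R47H by 0.5, 1 or 2 it called 76%, 92% and 100%. These data held no change shared between genes, so they do not check the calls made here. The median of a list stands beside that of all genes, with no list test. Named genes are the 10 largest called in each direction, topped up by p to 8, the genes of CV minus KO furthest to either side, and up to 4 per list by p. Members and the 31 lists were chosen with earlier results of these data known. The labels do not say that mouse numbers pair the arrays. Deviations from the group mean correlated at -0.04 to 0.36 for same-numbered mice and at -0.39 to 0.21 for differently numbered mice. They were not adjusted for sex, and mouse 1 was the female in each genotype. Whether same-numbered mice shared a batch was not tested.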

Additional observations from a re-analysis of the deposited data

How the results depend on the processing

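The count of 23 called genes was 19 without a sex term, 31 with quantile normalization, 31 with median centring, 33 with trend and robust options and 23 with no filter on the mean. It was 35 with mouse number as a replicate block (not paired by the labels), 13 with every probe set tested, 1 with a filter at the 75th percentile, which only 2 of the 23 genes passed, 1 with the neutrophil score as a covariate and 0 with the oligodendrocyte score. The oligodendrocyte score itself separates R47H from the other arrays, and the cause of the loss under the neutrophil score was not tested. Leaving out each array gave 0 to 33 calls, 0 to 1 genes beyond both KO and CV, and 47 to 121 genes of CV minus KO on the KO side. That last count was 18 of 22 with the neutrophil score and 41 of 68 with the oligodendrocyte score, against 91 of 131. With a score in the fit, or a KO or CV array left out, the departure and CV minus KO need not be orthogonal. The choice of genes can then affect their side. Genes with R47H arrays outside the 6 others numbered 484 with no filter, 97 with the 75th percentile filter and 513 with every probe set and no filter, as the number of genes tested changed.

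Among the named genes directions turned under 1 alternative, the oligodendrocyte score: Postn 0.43, Gpnmb -0.93, Cldn11 -0.41, Clu -0.18, Olig1 -0.48, C4b -1.78, Mmp9 0.44, Camp 3.54, S100a6 0.15, Pf4 -0.21, Nr1d1 0.19, Cry2 0.29, Scd2 -0.086, Crybb1 -0.40, Tap1 -0.082, Stmn1 -0.14 and Fabp7 -1.62. Of 1270 refitted values for named genes 211 lost a call, 15 gained one and 17 turned.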
